A study of Homo sapiens with 2 samples.

Results

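The MCM helicase family comprises MCM2 to MCM10, and its members were taken as the probe sets that the platform annotation gives exactly 1 of these 9 gene symbols. All 9 genes were found, with 32 probe sets, among 18132 genes measured by 49292 probe sets. Each of the 32 probe sets had an Entrez identifier with the same symbol in RefSeq, and 0 probe sets listed a member together with another gene. RNA of SW480, an established line of human colorectal cancer cells, was recovered with an antibody against the RNA-binding protein QKI (RNA immunoprecipitation, RIP). There was 1 array of cells given siRNA against the long non-coding RNA NONHSAT136151 (siLnc) and 1 array of cells given negative control siRNA (siNC). Both groups received 100 pmol of siRNA by lipid transfection and were collected at 48 h. The comparison addresses which mRNAs are recovered with QKI in a different amount once NONHSAT136151 is silenced.

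Since each condition was measured on 1 array, differences have no replicate check and no p-value is given, and precision is limited by the number of arrays. Neither input RNA nor IgG precipitates were analysed here. A different recovery with QKI and a different amount of the mRNA in the cells therefore cannot be told apart. In RNA from a whole culture, fewer cells that express a gene and less RNA per cell cannot be told apart either.

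MCM2 to MCM7 are the subunits of a ring-shaped helicase that unwinds DNA at replication forks. The ring is loaded onto replication origins in G1 phase by the origin recognition complex with CDC6 and CDT1, and in S phase it becomes active when CDC45 and the GINS complex join it. Dividing cells, colorectal cancer cells among them, make these subunits in large amounts, and antibodies against them are used as markers of proliferation. MCM8 and MCM9 form a related helicase that acts in homologous recombination. MCM10 carries the family name but not the helicase fold, and helps to activate the ring at origins. QKI, of the STAR family, binds mRNAs and affects their splicing, stability and translation.

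The family was higher in the siLnc precipitate, and every probe set past 2-fold read a subunit of the replicative ring. Of the 32 probe sets, 31 had a higher log2 signal in siLnc than in siNC, and 1 of MCM9 had a lower one, while 41.1% of all probe sets lay above 0. At least 2-fold higher were 9 member probe sets (28.1%), against 1.51% of all probe sets, and 0 were at least 2-fold lower, against 0.185%. Those 9 were among the 21 probe sets of MCM2 to MCM7 and came from 5 of the 6 genes. Of the 11 probe sets of MCM8, MCM9 and MCM10, the largest difference was 0.85. Averaged over probe sets, every gene lay above 0, against 39.2% of all genes. The gene means ran over a range of 0.13 for MCM9 to 1.31 for MCM4, with a median of 0.81 over the 9 genes, while the median over all genes was -0.06. MCM2 and MCM4 reached 2-fold as a mean, against 0.651% of all genes. DNA replication is among the groups that the study found raised on these same arrays, so these counts are no independent evidence of a direction.

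The share of positive differences depended on signal across the arrays. Among the 4667 genes with a mean log2 signal of at least 5.05, 62.2% lay above 0 and 1.39% were at least 2-fold higher, with a median of 0.11. The value of 5.05 is the log2 signal under which 95% of 102 probe sets for genes of absent cell types, such as muscle, neurons and liver, lay in siNC. Signals below it are called near background here, and the size of a difference measured from them is not exact. Of the member probe sets, 18 lay at or above 5.05 in siNC. All 18 were higher in siLnc, by 0.27 to 1.65 with a median of 0.85 (0.845), and 5 were at least 2-fold higher. Another 11 lay below 5.05 on both arrays and 3 in siNC only. The shares above are for genes chosen by the mean of both arrays. The like shares of all probe sets chosen by their siNC signal were not computed, so the counts among the 18 have no background beside them.

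**Figure D1:**
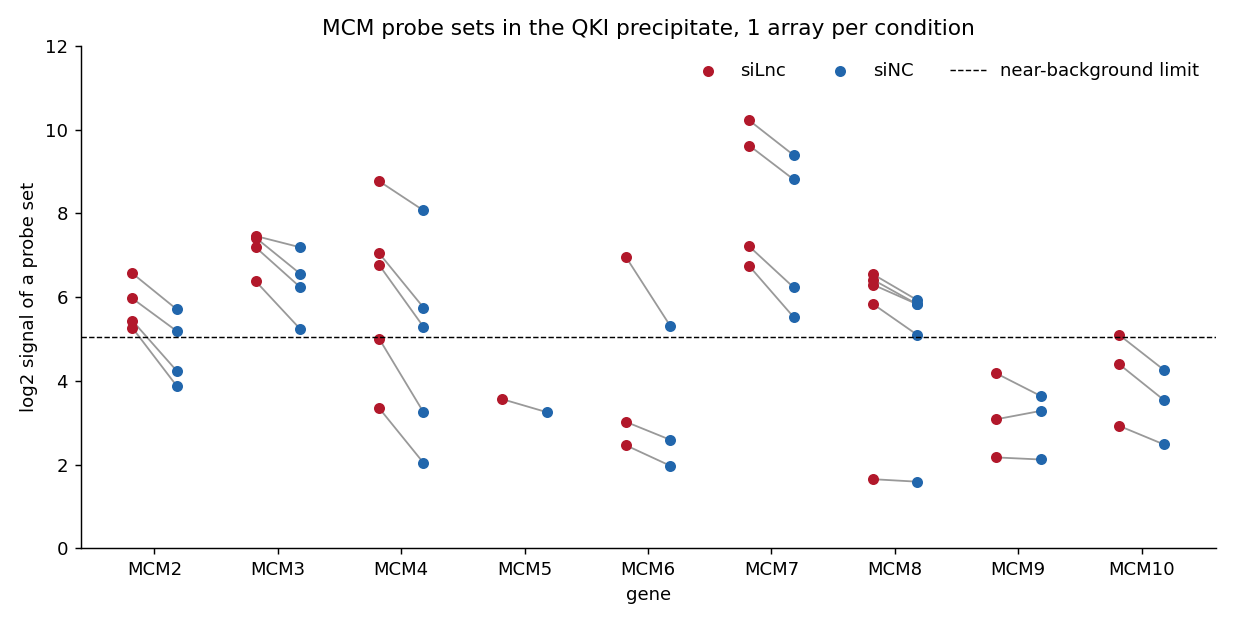
log2 signal (y axis) of each of the 32 MCM probe sets by gene (x axis), with siLnc (red) left of siNC (blue) and a line joining the values of 1 probe set. All lines but 1 of MCM9 fall to the right, and the dashed line marks the near-background signal of 5.05.

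The upstream sequences of the members are shown because MCM genes are well-known targets of E2F, the transcription factor family that turns on replication genes before S phase. RefSeq promoter windows (GRCh38.p14) matched 7 members, MCM2, MCM3, MCM6, MCM7, MCM8, MCM9 and MCM10, with 9 windows, 3 of them for alternative starts of MCM7. The 250 bases before the annotated start were searched on both strands for the E2F words TTTCCCGC, TTTCGCGC, TTTGCCGC and TTTGGCGC. These occurred in 3 of the 9 windows, 1 each of MCM3, MCM6 and MCM7, and in 2.79% of 35116 promoter windows. The other windows of MCM7 held none of these words. GC content was 55.6% to 72.4% in the 9 member windows, with a median of 58.0% over all windows. The share of 2.79% was not matched for GC content. Capitals mark the E2F words, on either strand, and each window is given 5′ to 3′ on the strand of its gene.
MCM6, chr2:135876444-135876693, minus strand: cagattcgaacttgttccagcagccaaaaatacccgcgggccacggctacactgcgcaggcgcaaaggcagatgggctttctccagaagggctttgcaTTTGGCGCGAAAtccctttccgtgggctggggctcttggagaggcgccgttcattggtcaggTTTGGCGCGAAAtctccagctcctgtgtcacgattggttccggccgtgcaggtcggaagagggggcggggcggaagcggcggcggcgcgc
MCM3, chr6:52284743-52284992, minus strand: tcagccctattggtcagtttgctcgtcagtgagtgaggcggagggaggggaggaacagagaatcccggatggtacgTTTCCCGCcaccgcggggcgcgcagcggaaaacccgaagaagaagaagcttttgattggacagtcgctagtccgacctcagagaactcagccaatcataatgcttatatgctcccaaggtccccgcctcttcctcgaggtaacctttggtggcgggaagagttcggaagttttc
MCM7, chr7:100101398-100101647, minus strand: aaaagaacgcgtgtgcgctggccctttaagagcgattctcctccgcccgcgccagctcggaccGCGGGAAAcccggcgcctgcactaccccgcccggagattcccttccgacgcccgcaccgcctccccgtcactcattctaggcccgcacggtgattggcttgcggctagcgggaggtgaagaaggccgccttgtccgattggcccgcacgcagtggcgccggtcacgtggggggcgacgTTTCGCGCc
MCM2, chr3:127598161-127598410, plus strand: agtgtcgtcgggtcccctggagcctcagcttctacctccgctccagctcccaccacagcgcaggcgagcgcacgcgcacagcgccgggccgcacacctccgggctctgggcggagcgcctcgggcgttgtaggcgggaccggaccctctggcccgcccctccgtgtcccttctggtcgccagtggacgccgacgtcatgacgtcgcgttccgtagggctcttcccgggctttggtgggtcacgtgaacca
In MCM6 the words lay in 2 stretches of the same 12 letters, TTTGGCGCGAAA, in each of which a word on 1 strand overlaps a word on the other. Counted from the base before the start as -1, the first word of each stretch began at -152 and -90. The word of MCM3 began at -174, and those of MCM7 at -187 and -9. The window of MCM2 is shown as that of a member with a mean of at least 2-fold in which none of these words was found. The CCAAT box (CCAAT, both strands) occurred in windows of 6 of the 7 members and in 32.0% of all windows, and the GC box (GGGCGG) in 6 of 7 and 42.6%. Here a member counted if any of its windows held the box, so the counts of members and the shares of windows are unlike measures. These matches describe the letters only, since the arrays measured RNA recovered with QKI and not transcription.

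MCM4, a subunit of the ring that also forms a helicase core with MCM6 and MCM7 in vitro, had the largest mean difference. Its 5 probe sets had log2 signals of 8.77, 7.05, 6.77, 5.01 and 3.35 in siLnc, against 8.07, 5.75, 5.29, 3.25 and 2.04 in siNC, in the same order. All 5 were higher in siLnc, and the differences were 0.70, 1.30, 1.48, 1.76 and 1.31, a mean of 1.31 ± 0.39 (SD over 5 probe sets) or 2.48-fold. The brightest probe set thus had the smallest difference, and the last 2 lay below 5.05 on both arrays. Among the 500 probe sets nearest in signal to each one, the robust SD of the difference (from the median absolute deviation) was 0.32 for the brightest and 0.43 for the third. This spread holds real changes and noise alike. All MCM4 probe sets except the brightest lay at least 3 such SDs above the median of their neighbours (3.08 to 6.56 SDs), a distance that 1.16% of all probe sets reached.

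MCM2, the subunit that binds histones H3 and H4 at the fork, had log2 signals of 6.57, 5.97, 5.44 and 5.27 in siLnc, against 5.71, 5.19, 4.24 and 3.88 in siNC. Its 4 differences were 0.86, 0.78, 1.20 and 1.39, with a mean of 1.06 ± 0.29 (SD over 4 probe sets). The 2 probe sets past 2-fold were those that lay below 5.05 in siNC, and the brighter ones differed by 1.82-fold and 1.72-fold. Of the 4, the dimmest lay 3.13 local SDs above its neighbours and the others 1.49 to 2.37.

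MCM7, the subunit that is ubiquitylated when the ring is taken off DNA, was read by 4 probe sets that all lay above 5.05 on both arrays. They had log2 signals of 10.22, 9.62, 7.21 and 6.74 in siLnc, against 9.39, 8.81, 6.23 and 5.52 in siNC. The differences were 0.83, 0.81, 0.98 and 1.22, with a mean of 0.96 ± 0.19 (SD over 4 probe sets), or 1.95-fold. This was the narrowest spread over probe sets among the members. The median of that SD was 0.21 over the 6995 genes with at least 3 probe sets, and 0.19 over the 1795 of them with a mean signal of at least 5.05. Each MCM7 probe set lay 2.15 to 2.62 local SDs above its neighbours.

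MCM3, which in yeast contacts the loading factors, was also read above 5.05 throughout. Its probe sets had 7.46, 7.42, 7.19 and 6.38 in siLnc, against 7.19, 6.56, 6.24 and 5.24 in siNC. Of the differences of 0.27, 0.86, 0.95 and 1.14, the smallest belonged to the probe set brightest in siNC, and the mean was 0.81 ± 0.38 (0.805, SD over 4 probe sets). This brightest probe set lay 0.23 local SDs above its neighbours, so its difference was that of other probe sets of like signal, while the rest lay 1.80 to 2.48 SDs above theirs. It was designed on the same target record as the probe set at 0.86.

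MCM6, a further subunit of the core, showed the widest disagreement. The brightest of its 3 probe sets had 6.96 in siLnc and 5.31 in siNC, a difference of 1.65 (3.14-fold) that lay 3.59 local SDs above its neighbours. The other 2 had 3.02 and 2.46 in siLnc, against 2.59 and 1.97 in siNC, near background on both arrays, with differences of 0.43 and 0.49. The mean of 0.86 ± 0.69 (SD over 3 probe sets) therefore describes none of the 3. MCM5, which with MCM2 forms the gate through which the ring opens, was read by 1 probe set with 3.56 in siLnc and 3.25 in siNC. Its difference of 0.31 was measured near background, and no size is read from it.

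Of the other members, MCM8, which pairs with MCM9 in recombination, was the only one with probe sets above 5.05 on both arrays. Its 4 brighter probe sets had 6.55, 6.42, 6.30 and 5.84 in siLnc, against 5.93, 5.83, 5.83 and 5.10 in siNC, and differed by 0.62, 0.59, 0.47 and 0.74. They lay 0.75 to 1.61 local SDs above their neighbours. The fifth had 1.65 in siLnc and 1.59 in siNC, at the bottom of the scale, and brought the mean to 0.50 ± 0.26 (SD over 5 probe sets). MCM9 had 4.18, 3.08 and 2.17 in siLnc, against 3.64, 3.28 and 2.12 in siNC, all near background. Its differences of 0.54, -0.20 and 0.05 had a mean of 0.13 ± 0.38 (SD over 3 probe sets), and no direction is read from them. MCM10, which helps to start unwinding and binds DNA polymerase alpha, had 5.09, 4.39 and 2.92 in siLnc, against 4.26, 3.54 and 2.48 in siNC. Its mean difference was 0.71 ± 0.23 (SD over 3 probe sets), and only the siLnc value of its brightest probe set exceeded 5.05.

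**Figure D2:**
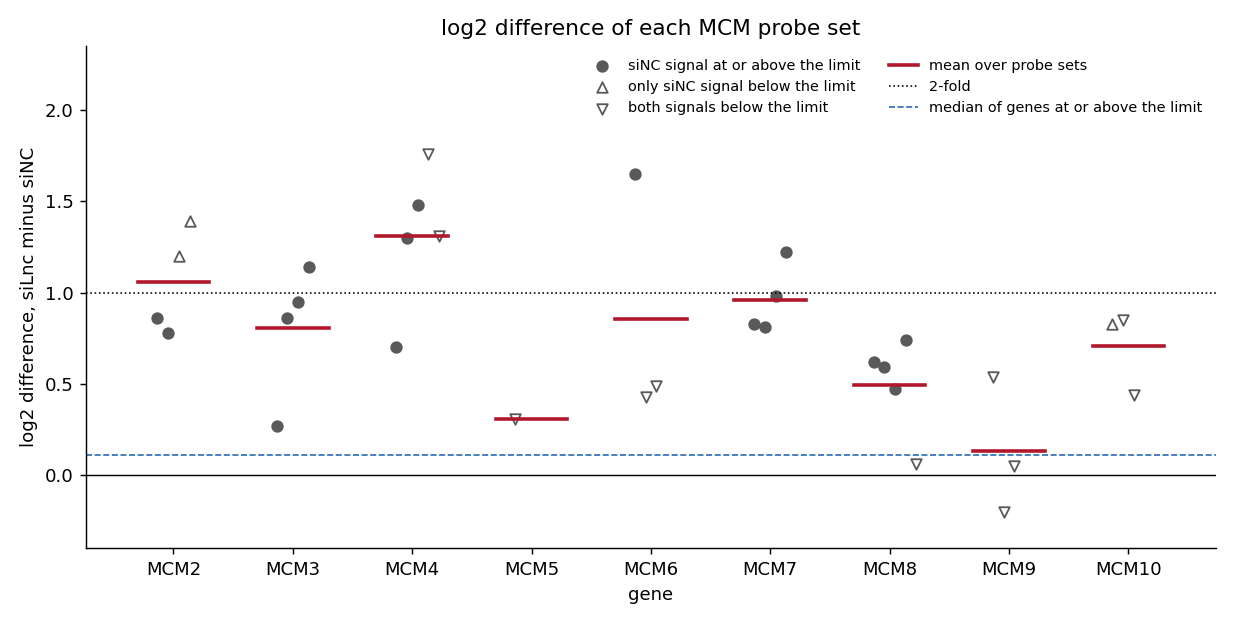
log2 difference, siLnc minus siNC (y axis), of each MCM probe set by gene (x axis), with red bars for the mean over probe sets. Filled points had a siNC signal of at least 5.05, and open triangles lay below it in siNC only (up) or on both arrays (down). Among filled points MCM6 (1.65) and MCM4 (1.48) are highest and MCM3 (0.27) is lowest.

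Across genes, MCM2 to MCM7 had a median difference of 0.91 and the group of MCM8, MCM9 and MCM10 one of 0.50. The groups overlapped, since MCM10 (0.71) and MCM8 (0.50) lay above MCM5 (0.31). Without replicates the difference between the groups could not be tested. Among the 8 members read by several probe sets, the brightest probe set lay below the gene mean in 4 (MCM2, MCM3, MCM4 and MCM7) and above it in 4 (MCM6, MCM8, MCM9 and MCM10). The order of the gene means is therefore set in part by which probe sets a gene happens to have. By the brightest probe set alone MCM6 came first with 1.65, ahead of MCM2 (0.86), MCM7 and MCM10 (0.83 each), and MCM3 came last with 0.27. Probe sets of a gene are also not independent readings, because the 32 were designed on 27 target records, 4 of which were read by several probe sets. On 1 record of MCM4, 3 probe sets differed by 0.70, 1.48 and 1.76.

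**Figure D3:**
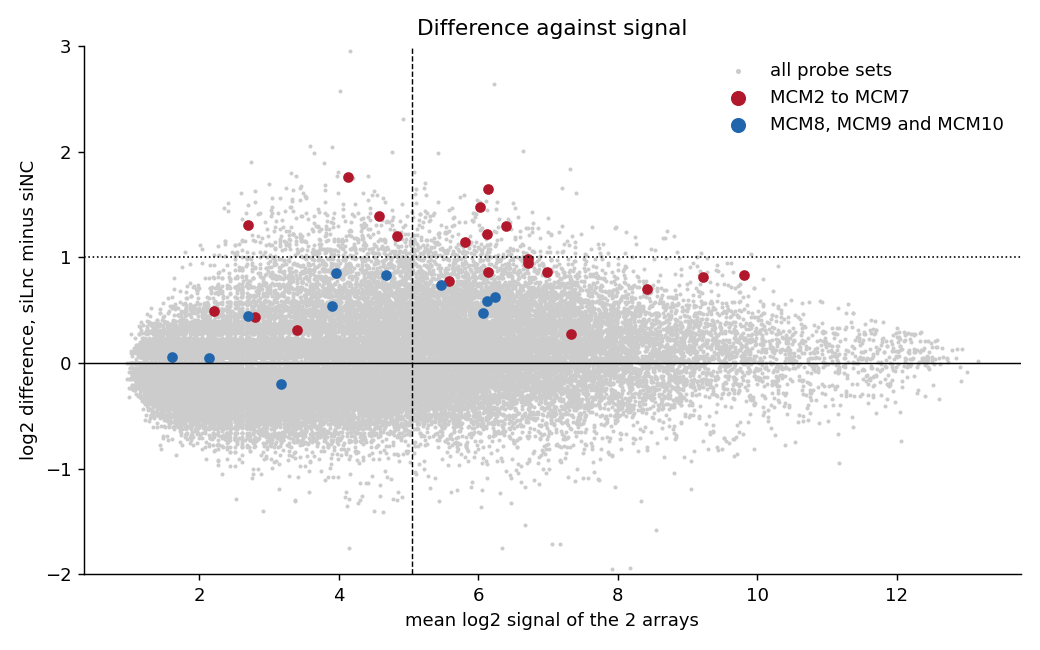
log2 difference, siLnc minus siNC (y axis), against the mean log2 signal of both arrays (x axis) for all probe sets (grey), MCM2 to MCM7 (red) and MCM8, MCM9 and MCM10 (blue), where 9 grey probe sets lie outside the plotted range. Right of the dashed line, at 5.05, all MCM2 to MCM7 probe sets but 1 of MCM3 (0.27) lie in the upper part of the grey cloud, and the dotted line marks 2-fold.

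The proteins that load, switch on and accompany the ring were described in 6 lists, with 46 genes in all. Among them 38 had positive differences, 3 reached 2-fold upward and 0 reached 2-fold downward, and the median was 0.35. Over all genes 39.2% were above 0 and 0.651% reached 2-fold upward, and over genes of mean signal at or above 5.05 these shares were 62.2% and 1.39%. The helicase partners CDC45 and GINS1 to GINS4, which make the ring active, had a median of 0.56 (0.555) over 5 genes, all above 0. Of these 5, 3 had mean signals below 5.05 on both arrays, CDC45 among them. CDC45 had a mean of 4.97 in siLnc and 4.09 in siNC (difference 0.88, with 0.38 in its brightest probe set), and GINS2, read by 1 probe set, had 7.57 in siLnc and 6.73 in siNC (0.84). The loading factors had a median of 0.62, with 8 of 9 genes above 0, and ORC5, of the origin recognition complex, had a mean difference of 1.05 (0.74 in its brightest probe set). For the kinase and scaffold genes that activate the loaded ring the median was 0.30 over 8 genes, 5 of them above 0. This share was near that of the brighter genes, although 4 of the 8 had mean signals below 5.05 on both arrays. DONSON, which brings GINS to the ring, had 0.42, and DBF4, the activating subunit of the CDC7 kinase, 0.38.

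Fork factors that travel with the ring had a median of 0.52 over 4 genes, all of them near background on both arrays, with CLSPN (claspin, a checkpoint mediator) at 0.62 (0.615) and TIPIN, of the fork protection complex, at 0.55. Genes that take the ring off DNA had a median of 0.27 over 8 genes, all above 0, and 4 of the 8 had mean signals below 5.05 on both arrays. VCP, the ATPase that extracts the ubiquitylated ring, had 6.29 in siLnc and 5.21 in siNC (1.08 over 4 probe sets, 0.76 to 1.42). Local centring and cyclic loess brought VCP below 2-fold, at 0.94 and 0.96. The replicative polymerases and primase had a median of 0.27 over 12 genes. Of these, 8 lay above 0, again near the share of the brighter genes, although 2 of the 12 had mean signals below 5.05 on both arrays. POLE2, a subunit of DNA polymerase epsilon, had 5.94 in siLnc and 4.29 in siNC (1.65, 1 probe set). MCMBP, which binds MCM subunits outside the ring, had 7.23 in siLnc and 6.59 in siNC, and its 3 probe sets differed by 0.54 to 0.78. For MCM3AP, an mRNA export factor named for its contact with MCM3, the mean difference was 0.29 over 3 probe sets (0.24 to 0.34).

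**Figure D4:**
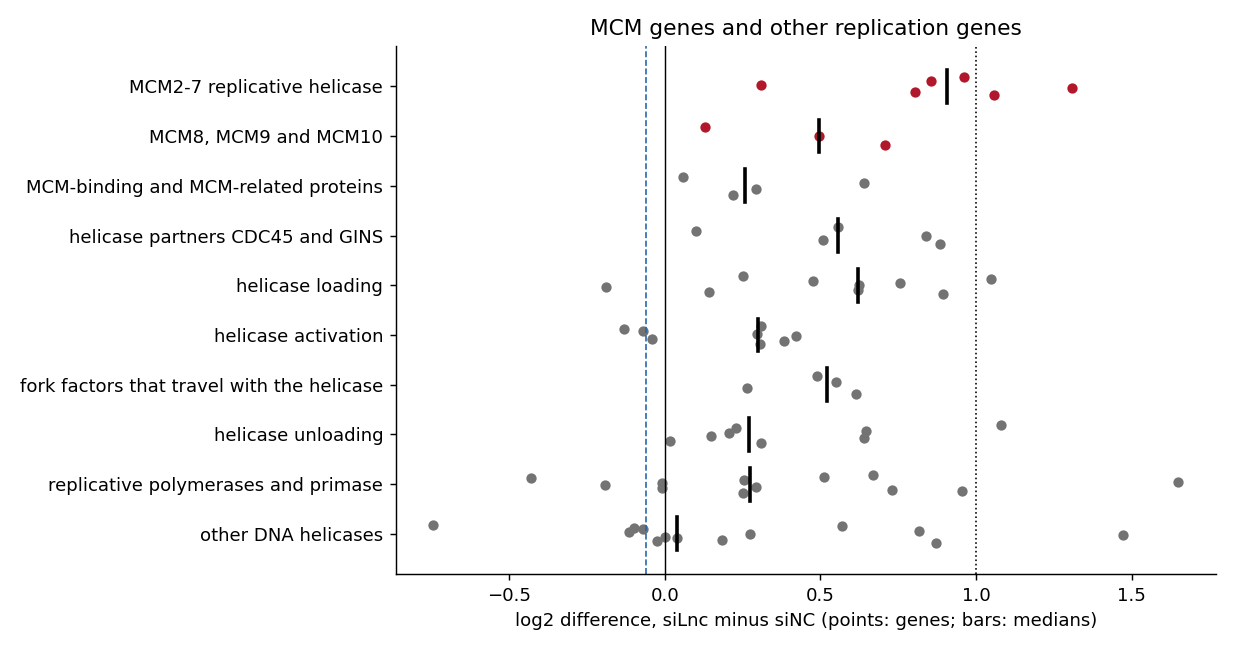
log2 difference, siLnc minus siNC (x axis), of each gene (points) in the MCM groups (red) and in lists of other replication genes (grey), with black bars for list medians and a dashed line for the median of all genes (-0.06). MCM2 to MCM7 have the highest list median (0.91) and other DNA helicases the lowest (0.04).

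The arrays as a whole bear on these values in several ways. The median log2 signal was 3.29 in siLnc and 3.32 in siNC. The sources used here do not give the scaling, so a gene is higher or lower only in relation to the rest of its array. Bacterial hybridization controls had 18 probe sets, and all 18 were lower in siLnc, with log2 differences between -1.30 and -0.20. The silencing of NONHSAT136151 could not be checked, as 0 probe sets carry that name. Of 12 epithelial markers, 8 were at or above 5.05 on both arrays, among them EPCAM with 9.68 in siLnc and 9.86 in siNC, while VIL1, CDH1, CDX1 and LGR5 were below it. The 12 markers had a median difference of -0.12, with 5 above 0 and 0 at least 2-fold higher or lower. The most negative were CDX2 and ASCL2, intestinal transcription factors, with -0.95 and -0.92. Some transcripts of glands, airway lining and blood moved with the comparison as well. Of the 30 genes measured for that list, 12 were at least 2-fold higher in siLnc, against 0.651% of all genes. The median difference over all 30 was 0.09. The summed linear signal of the 30 was 2481 in siLnc and 300.3 in siNC. On the log2 scale the 30 ranged from 1.29 to 10.09 in siLnc and from 1.35 to 5.64 in siNC. The part of these transcripts and that of the hybridization controls in the MCM differences was not tested.

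The gene means stayed above 0 under every setting tried, while the count past 2-fold changed. Over 10 other settings for scaling, dim probe sets and the averaging of probe sets, each of the 9 members lay above 0 in all 10. All settings reuse the same 2 arrays, so this is no independent evidence of a direction, and for MCM9 none is read. Settings that choose or average probe sets cannot change MCM5, which has 1 probe set. MCM2 ranged over 0.86 to 1.30, MCM3 over 0.27 to 0.91, MCM4 over 0.70 to 1.46, MCM5 over 0.31 to 0.42 and MCM6 over 0.49 to 1.65. For MCM7 the range was 0.82 to 1.03, for MCM8 0.37 to 0.62, for MCM9 0.05 to 0.54 and for MCM10 0.64 to 0.84. Subtracting the median of the 500 probe sets nearest in signal, which reached 0.18 for the members, left 0.96 for MCM2, 1.28 for MCM4 and 0.82 for MCM7.

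**Figure D5:**
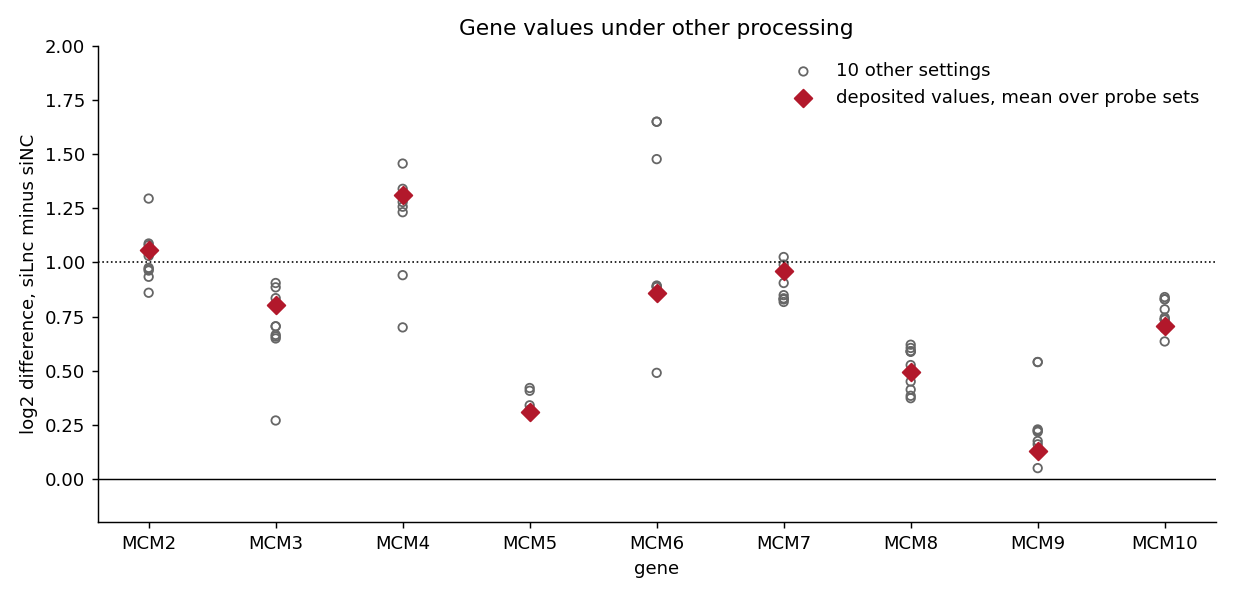
log2 difference, siLnc minus siNC (y axis), of each MCM gene (x axis) from the deposited values averaged over probe sets (red diamonds) and under 10 other settings (open circles). All values lie above 0, and MCM6, MCM4 and MCM3 move most.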

How the data were processed

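PrimeView Human Gene Expression Arrays were hybridized with RNA recovered by anti-QKI RIP, and the values that the authors deposited are log2 signals of probe sets. A company did the array work, with GCOS as the tool in the submitters' processing notes. The sources used here do not give the background correction, summarisation or normalization. The log2 scale was read from the values, since the highest (13.28) exceeds 11.09, the largest natural log of a 16-bit scan. Of 49371 probe sets, 79 controls were left out. Gene names came from the platform annotation, which lists 44988 probe sets with 1 gene symbol, 1832 with several and 2472 unnamed here. The siNC signal was subtracted from the siLnc signal, probe sets of a gene were averaged, and 2-fold was a log2 difference of 1. The near-background signal is the 95th percentile, in siNC, of 102 probe sets for 41 genes that SW480 cells should lack, of which KRT10 and TNNI3 lay above it on both arrays.

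The members, the lists and the settings were chosen with earlier results of these data known. All members were named, and of each list of replication genes and of epithelial markers the genes past 2-fold or, where there were none, the 2 largest differences. The other epithelial markers, KRT10 and TNNI3 were named for their signal, after their values were seen. Genes of absent cell types and of glands, lining and blood are otherwise given by counts and signals over the list. No test was made, since each condition has 1 array. Leaving out probe sets ending in _s_at or _x_at (13 of the 32), which may share probes with other transcripts, averaging by target record, and the threshold of 3 local SDs were added after the data were seen. The local median and SD were tested on simulated data. limma 3.58.1 in R 4.3.3 was used for normalization, and Python 3.11.15 with numpy 2.4.6, pandas 2.3.3, scipy 1.17.1 and matplotlib 3.10.9 for the rest. Transcript sequences were not used here, so QKI binding motifs were not searched.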

Additional observations from a re-analysis of the deposited data

How the results depend on the processing

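The medians of the 9 MCM genes and of MCM2 to MCM7 moved by less than the robust SD of gene differences (0.26) under all 10 settings for scaling, filtering and averaging. The first was 0.81 (0.805) as deposited and ran from 0.70 to 0.86, the second was 0.91 and ran from 0.77 to 1.01. The count of genes at least 2-fold higher, 2 as deposited, was 1 (MCM4) after cyclic loess, quantile normalization and local centring, and 1 (MCM6) from the brightest probe set and from means on the linear scale. It was 3 without probe sets ending in _s_at or _x_at, 6 at 1.5-fold and 0 at 3-fold. Without dim probe sets it was also 3. For this a probe set was kept at or above the array median in siLnc (3.29) or in siNC (3.32). A probe set could thus be kept through siLnc alone, as that of MCM4 with 3.35 in siLnc and 2.04 in siNC was. The filter is therefore not independent of the difference. Of the 32 probe sets, 9 reached 2-fold as deposited (against 1.51% of all probe sets), 22 reached 1.5-fold and 2 reached 3-fold. Over the scaling and probe set settings the count at 2-fold ran from 8 to 10. At 3 local SDs the count was 6, against 1.16% of all probe sets. As deposited, 0.651% of all genes were at least 2-fold higher. The shares of all genes and probe sets at 1.5-fold and 3-fold, and at 2-fold under the other settings, were not computed. Those counts therefore have no background beside them. Of single genes and lists, 12 values moved by more than 0.26 and 174 moved less. MCM6 accounted for 4 of the 12, because 2 of its 3 probe sets are near background. A change of sign was looked for only in 2-fold calls, which were MCM2 and MCM4 alone, and 0 of their values changed sign. Depth cannot be stated for arrays. The 11 probe sets near background on both arrays, all those of MCM5 and MCM9 among them, limit what can be said of those genes. With 1 array per condition, leaving out a replicate was not possible.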

Other observations

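The other DNA helicases, which act mainly in repair, recombination and chromatin, had no common direction in the siLnc precipitate. Of 13 measured genes 7 lay above 0, against 39.2% of all genes, with a median log2 difference of 0.04. With brighter probe sets only, which could be kept through siLnc alone, the median was 0.22. Of the 13, 10 had mean signals below 5.05 on both arrays. HELLS, an SNF2 family chromatin remodeller needed for DNA methylation, was the 1 gene at least 2-fold higher, against 0.651% of all genes. It had a mean log2 signal of 5.13 in siLnc and 3.65 in siNC, and its 3 probe sets differed by 1.31 to 1.68. BLM, the helicase lost in Bloom syndrome, had 5.30 in siLnc and 4.43 in siNC, and ZRANB3, an annealing helicase, had 2.59 in siLnc and 3.34 (3.335) in siNC. RECQL, a RecQ helicase, had 4.82 in siLnc and 4.01 in siNC, and its 5 probe sets differed by 0.70 to 0.93. BLM, ZRANB3, RECQL and RECQL4 were named after their values were seen. RECQL4, which takes part in the activation of origins as well, had 5.33 in siLnc and 5.40 in siNC. It was counted both here and among the genes that activate the loaded ring.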
